A study of Homo sapiens with 48 samples.

Results

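The 24 h response of IRS-1 clone #20 to IGF-I was described across the whole array. T47D-YA is a breast cancer line, derived from T47D, described as making no insulin receptor substrate (IRS) proteins, and IRS-1 #20 is 1 clone of it made to express IRS-1. Its 3 IGF-I arrays at 24 h were set against its 3 serum-free medium (SFM) arrays at 24 h. These are 6 of the 48 Affymetrix HG-U133 Plus 2.0 arrays of the series, chosen by their source labels and not by any measured value, and all 54613 probe sets other than the Affymetrix controls were described. For comparison the same clone had 3 IGF-I and 3 SFM arrays at 4 h, IRS-1 clone #10 had 3 and 3 at 24 h, and clones #1 and #6 of the same line, made to express IRS-2, had 3 and 3 each at 24 h. All of these cells were starved in SFM for 24 h first, and the SFM arrays come from cells that then received SFM+FN without IGF-I. Nothing in the labels says that the 3 arrays of a group came from separate cultures, so every p-value measures the spread between arrays, which may be technical, and results from 1 clone cannot be told apart from features of that clone.

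IGF-I binds the type I IGF receptor, a tyrosine kinase. IRS adaptors dock on the active receptor and pass the signal to PI3K, AKT and mTOR and to the Ras and MAPK cascade, which drive protein synthesis and cell division. ATF4 is a transcription factor whose translation goes up when the initiation factor eIF2 is phosphorylated, as in amino acid shortage or endoplasmic reticulum (ER) stress, and, in many cells, when mTOR complex 1 is active. With CHOP (DDIT3) and C/EBP partners it binds the amino acid response element, whose core reads TGATGNAA, and switches on genes for amino acid uptake, serine and asparagine synthesis and tRNA charging. Many genes of mitosis carry another short promoter word, TTTGAA, known as the cell cycle homology region.

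The stretches below are shown because these genes rose with IGF-I and their promoters held one of the 2 words. KLHDC7B belongs to none of the gene lists described below. They come from RefSeq promoters (GRCh38.p14, 250 bases before to 50 after the start, the first-listed promoter of each gene), are printed 5′ to 3′ on the gene's own strand, and have the motif in capitals, on either strand. The first of them is from ASNS, asparagine synthetase (chr7:97872458-97872487, minus strand).
ASNS: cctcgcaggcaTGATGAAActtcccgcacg
CHAC1 (chr15:40953251-40953280, plus strand): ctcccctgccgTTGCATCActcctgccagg
SLC7A1 (chr13:29595663-29595692, minus strand): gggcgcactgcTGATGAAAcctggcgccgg
TARS1 (chr5:33440956-33440985, plus strand): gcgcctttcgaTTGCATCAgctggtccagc
CARS1 (chr11:3057407-3057436, minus strand): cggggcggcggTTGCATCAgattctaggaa
KLHDC7B (chr22:50545737-50545766, plus strand): gtttctggtgaTTTCATCAgggccacatca
The next pair, from the mitosis genes KIF14 and SKA1, has TTTGAA in capitals.
KIF14 (chr1:200620733-200620762, minus strand): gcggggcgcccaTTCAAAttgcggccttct
SKA1 (chr18:50375068-50375095, plus strand): cgcggcgggcggTTTGAAttttgcttac

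After 24 h of IGF-I, 102 probe sets were higher and 35 lower than in SFM by both criteria of a call: a change of 1.5-fold or more and a limma p, adjusted by Benjamini-Hochberg, of less than 0.05, fitted over all 48 arrays. These are 0.187% and 0.0641% of the 54613 probe sets tested, 0.251% together. A gene was then represented by its brightest probe set with a single symbol, and by that measure 53 of 19775 genes rose (0.268%) and 9 fell (0.0455%), together 0.314%. Changes in amount of RNA cannot be told apart in such bulk samples from changes in the number of cells that hold it. The genes that rose were led by secreted factors of the TGF-beta family, genes of the ATF4 and CHOP response, amino acid transporters and amino acid enzymes, and the genes that fell were a mixed group with small changes. Most changes were small: over all genes the median absolute log2 fold change was 0.07, and the signed median was 0.01. At any fold 3930 probe sets passed the adjusted p, 2687 of them higher and 1243 lower. In all 137 called probe sets the 3 IGF-I arrays lay apart from the 3 SFM arrays, as they did in 20.1% of all probe sets and 24% of genes. Single arrays moved these counts. Without SFM replicate C 155 probe sets rose (157 without replicate C of all groups), and without IGF-I replicate A 20 fell, against 56 without IGF-I replicate B, 57 without IGF-I replicate C and 61 without replicate B of all groups.

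**Figure D1:**
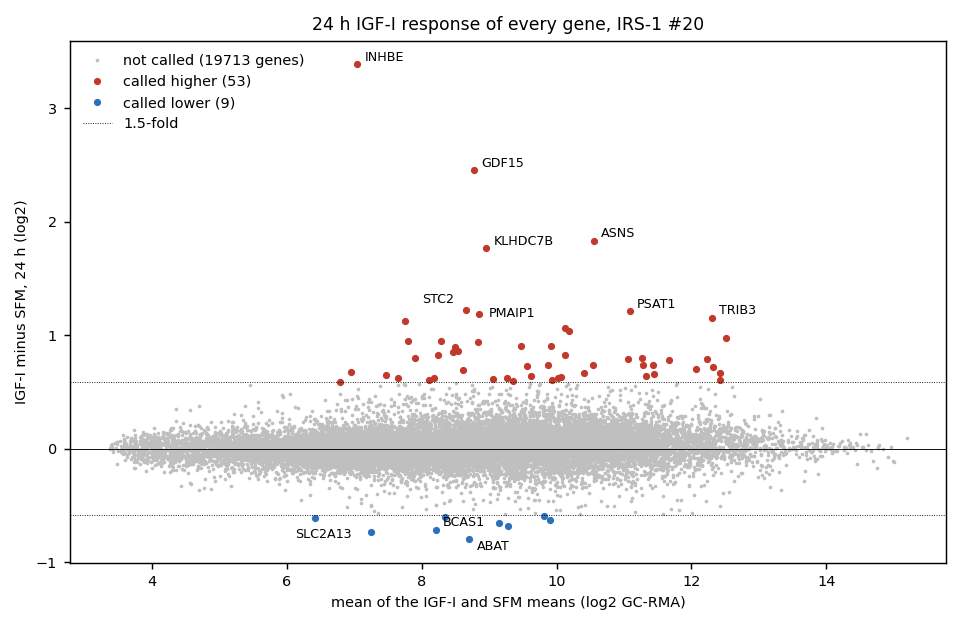
Log2 fold change, IGF-I minus SFM at 24 h in IRS-1 #20, against the mean log2 level of each of 19775 genes, with 53 genes called higher in red and 9 called lower in blue. INHBE stands at 3.39, GDF15 at 2.46, ASNS at 1.83 and KLHDC7B at 1.77, and the largest fall is that of ABAT at -0.79.

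The arrays were alike. The deposited log2 values ran between 3.13 and 15.36 with array medians of 7.39 to 7.51, and arrays of the 6 correlated at 0.99643 to 0.99813 within a group and at 0.99513 to 0.99702 between IGF-I and SFM. The 9 measured luminal markers, among them keratins KRT8 and KRT18, had group means of 9.76 to 14.77 in IGF-I and 10.05 to 14.75 in SFM arrays, and none was called, though 4 were lower by the adjusted p: ERBB3 (-0.34), ESR1 (-0.29), GATA3 (-0.22) and KRT19 (-0.15). None of the 2 basal, 6 fibroblast, 4 endothelial and 3 leukocyte markers measured passed the adjusted p in limma. Their group means in SFM arrays ran from 4.51 (LUM) to 10.65 (COL1A1), where the median of all genes was 8.29. The ratio of the 3′ to the 5′ ACTB control probe sets, a sign of RNA quality, was 0.16, 0.14 and 0.18 (log2) in IGF-I arrays A, B and C and 0.20, 0.17 and 0.20 in SFM arrays A, B and C, so the groups overlapped, and its part in the results was not tested. The 3 IRS1 probe sets did not follow the labels of the clones. The median of one was 5.98 in clone #20, 5.43 in clone #10, 8.42 in clone #1 and 7.84 in clone #6 over 6 arrays each at 24 h, that of the brightest was 8.17 in clone #20, 8.05 in clone #10, 8.24 in clone #1 and 8.14 in clone #6, and the brightest IRS2 probe set was at 7.25 in clone #20, 7.36 in clone #10, 6.90 in clone #1 and 6.86 in clone #6. Where the probes lie relative to the introduced cDNA is not given in the sources used here, so the arrays do not check the clones' labels. With IGF-I, IRS1 (0.05), IRS2 (0.02) and IGF1R, the receptor (0.10), did not pass the test.

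The largest rise was that of INHBE, which encodes the beta E subunit of activins, secreted ligands of the TGF-beta family. Its log2 values were 8.85, 8.53 and 8.84 in the IGF-I arrays and 5.29, 5.37 and 5.40 in the SFM arrays, with every IGF-I array far above every SFM array. INHBE rose 10.5-fold (log2 3.39, standard error 0.11, adjusted p = 9.86e-29 in limma). GDF15, a distant member of the same family released by stressed cells, had 10.05, 9.96 and 10.00 in IGF-I and 7.45, 7.67 and 7.52 in SFM arrays, and rose 5.49-fold (log2 2.46, standard error 0.08). Its other 2 probe sets lay lower on the scale and moved less, at 0.29 and 0.32. Of the 29 measured ligands, receptors and targets of the TGF-beta and activin list these were the 2 called, and the median of the list was 0.02. INHBB, the beta B subunit, was at -0.56, which passed the adjusted p alone, being under 1.5-fold.

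The regulators of the ATF4 and CHOP response stood higher as a group. Of 22 measured genes 8 rose and none fell, all 22 had a log2 fold change above 0, and 15 were higher by the adjusted p at any fold, with a median of 0.49 against 0.01 over all genes. ATF4 itself had 12.10, 12.06 and 12.03 in IGF-I arrays and 11.22, 11.25 and 11.37 in SFM arrays, a rise of 0.78 (standard error 0.06). DDIT3, which encodes CHOP, the stress-induced partner of C/EBP factors, had 10.79, 10.49 and 10.70 in IGF-I and 9.52, 9.52 and 9.73 in SFM arrays. Both groups of arrays were clear of each other in both genes, and DDIT3 rose 2.10-fold (log2 1.07). TRIB3, a pseudokinase that ATF4 and CHOP induce and that holds them back, was among the brightest of the genes that rose, with 12.93, 12.85 and 12.86 in IGF-I and 11.70, 11.71 and 11.77 in SFM arrays (log2 1.15, standard error 0.04). The secreted glycoprotein gene STC2 rose by 1.22, CEBPG by 0.90 and CEBPB by 0.67 (both C/EBP factors), CHAC1, which degrades glutathione, by 0.85, and SESN2, a sestrin that restrains mTOR complex 1, by 0.61. SESN2 was at 0.57 after quantile normalization, just short of a call. The mTOR inhibitor DDIT4 (0.49), the translation repressor EIF4EBP1 (0.43) and the stress factor ATF3 (0.48) passed the adjusted p alone, and the eIF2 kinases EIF2AK3 (0.17) and EIF2AK4 (0.09) and the eIF2 phosphatase subunit PPP1R15A (0.10) passed neither.

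**Figure D2:**
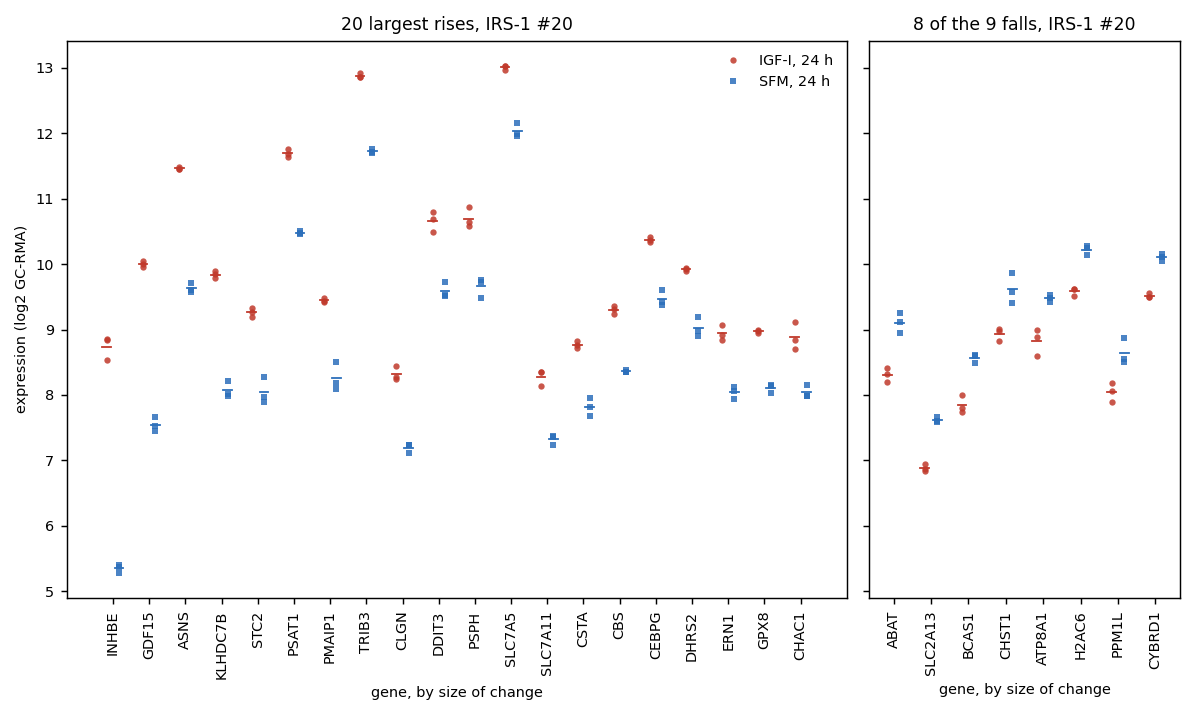
Log2 GC-RMA values of the 3 IGF-I arrays (red circles, left of each pair) and the 3 SFM arrays (blue squares) of IRS-1 #20 at 24 h, with bars at the means, for the 20 genes with the largest rises and 8 of the 9 genes that fell. The 2 groups do not overlap in any of these 28 genes, and INHBE has the widest gap, with SFM arrays between 5.29 and 5.40.

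Enzymes that make serine, glycine, asparagine and one-carbon units followed. Of 23 measured genes of this list 7 rose and none fell, with a median of 0.18. Asparagine synthetase, ASNS, had 11.48, 11.46 and 11.45 in IGF-I arrays and 9.57, 9.60 and 9.72 in SFM arrays. The IGF-I arrays were nearly equal and lay far above all SFM arrays, and ASNS rose 3.56-fold (log2 1.83, standard error 0.05, adjusted p = 8.38e-30 in limma). In the serine pathway PSAT1, the transaminase, rose by 1.21, with 11.76, 11.68 and 11.63 in IGF-I and 10.46, 10.50 and 10.47 in SFM arrays, and the phosphatase PSPH by 1.04. PHGDH, which catalyses the first step of that pathway, was higher by 0.52, which passed the adjusted p alone. The mitochondrial one-carbon enzymes SHMT2 (0.72), MTHFD2 (0.61) and ALDH1L2 (0.59) rose, while SHMT1, the cytosolic form of SHMT2, was at 0.07 and MTHFD1 at 0.11. ALDH1L2 was just over the threshold by its brightest probe set, and its other called probe sets gave 1.92 and 0.68. CBS, which commits homocysteine to cysteine synthesis, rose by 0.94, and CTH, which completes that step, was at 0.10. The proline enzymes PYCR1 (0.25) and ALDH18A1 (0.10) did not reach 1.5-fold, and glutamine synthetase, GLUL, was at -0.22.

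Of 26 measured amino acid transporters 4 rose and none fell, and the other 22 lay between -0.26 and 0.54, so that the median of the list was 0.01. The 4 were SLC7A5, the light chain of the large neutral amino acid exchanger, SLC3A2, the heavy chain that SLC7A5 and SLC7A11 share, SLC7A11, the cystine and glutamate exchanger, and SLC7A1, a carrier of cationic amino acids. SLC7A5 had 12.97, 13.03 and 13.03 in IGF-I and 11.95, 11.98 and 12.16 in SFM arrays, a rise of 0.97, and SLC3A2 had 11.46, 11.45 and 11.47 in IGF-I and 10.61, 10.68 and 10.70 in SFM arrays, a rise of 0.79. The 3 probe sets of SLC7A11 differed in size. Its brightest rose by 0.95, with 8.35, 8.14 and 8.35 in IGF-I and 7.35, 7.38 and 7.24 in SFM arrays. Another gave 8.83, 9.04 and 9.18 in IGF-I and 6.34, 6.18 and 6.47 in SFM arrays, a rise of 2.69 (standard error 0.10), and the third one rose by 2.34, so that these 2 rises were near that of GDF15 in size. SLC7A1 rose by 0.83, and the mean of its probe sets was 0.40, under the threshold. SLC1A4 (0.54), SLC6A9 (0.41) and SLC1A5, the glutamine carrier (0.39), passed the adjusted p alone. SLC38A2, the carrier known to be induced by amino acid shortage, stood at -0.01, with overlapping arrays.

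Enzymes that charge tRNA were counted by compartment. Of 17 measured cytosolic aminoacyl-tRNA synthetases 5 rose and 14 were higher by the adjusted p, none was lower, and the median was 0.32. Of 15 mitochondrial synthetases none rose or fell in limma and none passed the adjusted p, with a median of 0.06 and values of -0.06 to 0.22. The 5 were TARS1 (threonine, 0.80), GARS1 (glycine, 0.79), YARS1 (tyrosine, 0.74), CARS1 (cysteine, 0.66) and SARS1 (serine, 0.64). GARS1 had 12.58, 12.66 and 12.65 in IGF-I and 11.81, 11.80 and 11.91 in SFM arrays, without overlap, and CARS1 had 11.79, 11.77 and 11.78 in IGF-I and 11.09, 11.11 and 11.17 in SFM arrays. By the mean of all probe sets of each gene 2 of the list were called, since TARS1, YARS1 and CARS1 were then at 0.45, 0.42 and 0.58. AARS1 (0.55), IARS1 (0.53) and WARS1 (0.51) were next in size, and RARS1 stood at 0.03. XPOT, which exports tRNA out of the nucleus and is in no list, rose by 0.71.

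Genes of ER folding had small changes. Of 25 measured genes 1 rose, ERN1, which encodes the unfolded protein sensor IRE1, and 12 were higher by the adjusted p, with a median of 0.14. ERN1 had 8.84, 8.91 and 9.07 in IGF-I and 8.06, 7.95 and 8.12 in SFM arrays, a rise of 0.90 by its brightest probe set, while its mean over all probe sets was 0.46. The chaperone HSPA5 (BiP) was higher by 0.23, HSP90B1 by 0.25, DNAJB9 by 0.30 and HERPUD1 by 0.33, which all passed the adjusted p alone, and XBP1, which IRE1 splices, was at -0.04. Outside the list, CLGN, a calnexin relative that folds glycoproteins in the ER, had 8.24, 8.27 and 8.45 in IGF-I and 7.24, 7.23 and 7.11 in SFM arrays and rose by 1.13, GPX8, a peroxidase of the ER, rose by 0.87, and HSPA13, an HSP70 relative, by 0.64. Over these 6 lists of stress, amino acid, tRNA and ER genes, 25 of 128 measured genes rose (0.268% of all genes did), and 9 more called higher were in other lists and 19 in none. The lists were chosen with earlier results of these data known, so this count is a description and not a test.

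**Figure D3:**
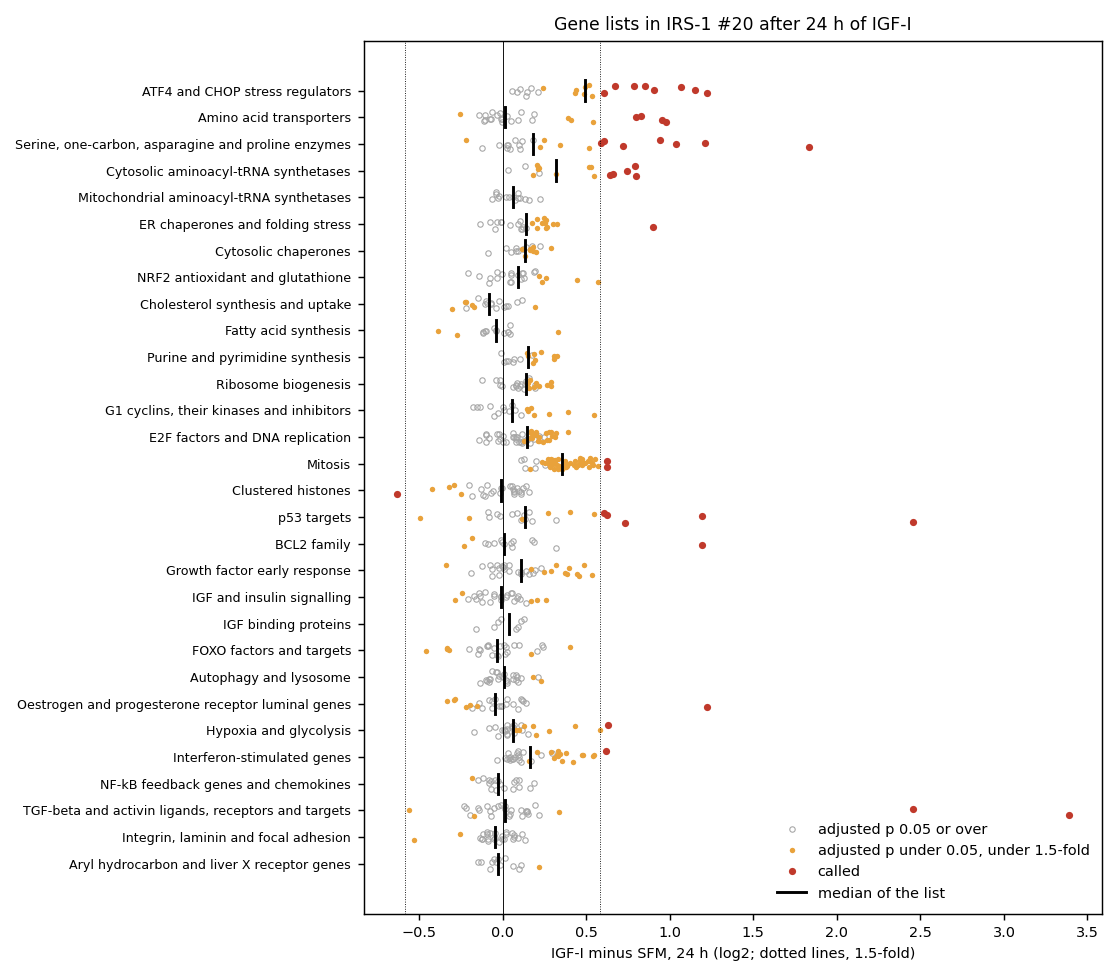
Log2 fold change, IGF-I minus SFM at 24 h in IRS-1 #20, for each measured member of 30 gene lists, with called genes in red, genes past the adjusted p but under 1.5-fold in orange, the others as open circles, and a bar at the median of each list. The medians of the ATF4 and CHOP regulators (0.49), the mitosis genes (0.36) and the cytosolic synthetases (0.32) lie farthest right, and 17 of the 30 lists hold no called gene.

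Genes tied to p53 and to cell death were called too. Of 23 measured p53 targets 5 rose and none fell, GDF15 among them, with a median of 0.13. PMAIP1, which encodes NOXA, a BH3-only protein that inhibits MCL1, had 9.44, 9.43 and 9.48 in IGF-I and 8.09, 8.19 and 8.50 in SFM arrays, a rise of 1.19. TNFRSF10B, the TRAIL death receptor DR5, rose by 0.73 and FAS, another death receptor, by 0.62, though both were at 0.43 and 0.46 by the mean of their probe sets. SESN2, also in this list, is given above. The cell cycle inhibitor CDKN1A was at 0.55 and the p53 ligase MDM2 at 0.27, which passed the adjusted p alone, and TP53INP1 was at -0.49. Several of these, GDF15, SESN2, PMAIP1 and TNFRSF10B, are known as targets of ATF4 or CHOP as well as of p53. Of 15 measured members of the BCL2 family PMAIP1 was the 1 called.

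Mitosis genes were higher by a small amount. All 56 measured members had a log2 fold change above 0, between 0.11 and 0.62, 50 passed the adjusted p, and the median was 0.36, but 2 reached 1.5-fold. These were KIF14, a kinesin of cytokinesis, with 10.20, 10.35 and 10.44 in IGF-I and 9.59, 9.72 and 9.80 in SFM arrays, and SKA1, a subunit of the kinetochore complex that holds microtubules, with 8.01, 7.92 and 7.94 in IGF-I and 7.09, 7.30 and 7.61 in SFM arrays. The SFM arrays of SKA1 were spread, and its rise was 0.48 without replicate A of all groups. Without SFM replicate A none of the list was called, and 1 was without replicate A of all groups, while 7 were called without SFM replicate C and 6 without replicate C of all groups. AURKB (0.57), PLK1 (0.52) and CCNB1 (0.46), kinases and a cyclin that drive entry into and passage through mitosis, were other members. The 51 measured E2F factors and DNA replication genes gave a smaller median, 0.15, with none called and 21 higher by the adjusted p, RRM2 (0.29) and MCM2 (0.16) among them. In IRS-1 #10 at 24 h the median of that list was 0.42 and 7 genes were called higher (0.197% of all genes were). The mitosis list had a median of 0.49 in IRS-1 #10 at 24 h, with 8 genes called higher. CCND1, the G1 cyclin, was at 0.04 in IRS-1 #20, with overlapping arrays.

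**Figure D4:**
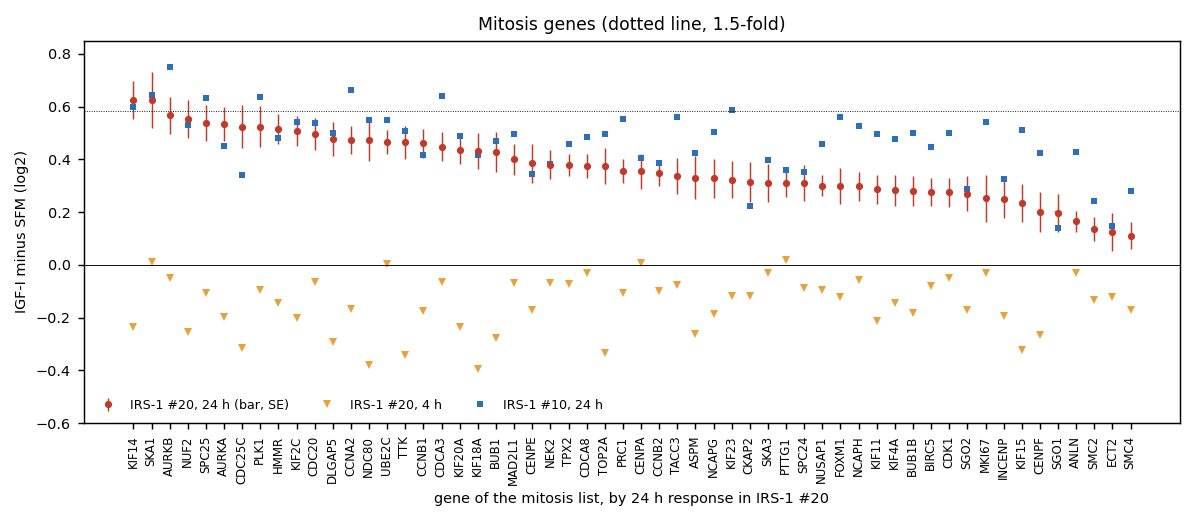
Log2 fold change, IGF-I minus SFM, of the 56 mitosis genes in IRS-1 #20 at 24 h (red circles with bars of 1 standard error), IRS-1 #20 at 4 h (orange triangles) and IRS-1 #10 at 24 h (blue squares), ordered by the 24 h value in IRS-1 #20. All 24 h values of IRS-1 #20 lie above 0, between 0.11 and 0.62, and most of its 4 h values lie below 0.

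In the promoters, TGATGNAA was found in 9 of the 40 genes called higher that had a RefSeq promoter (22.5%), against 2.62% of 15384 measured genes and 3.67% of all 27305 genes in the table. Beside the 6 genes printed above these were GPX8, SLC3A2 and TLR3. None of the 7 genes called lower that had a promoter held it. Called or not, it was in 4 of 20 ATF4 and CHOP regulators with a promoter and 4 of 22 amino acid transporters. It was also in 4 of 17 serine and one-carbon enzymes and 5 of 14 cytosolic synthetases. Among those called higher it was in 1 of 8, 2 of 3, 1 of 4 and 2 of 4, in the same order. TTTGAA was found in 34 of 50 mitosis genes (68.0%), KIF14 and SKA1 included, against 11.9% of measured genes and 15.4% of all. Of the 40 genes called higher 7 held TTTGAA (17.5%). Neither word contains the other. TTTCCCGC and TTTGGCGC, the sites of E2F, were found in none of the 40 genes called higher and in 2.99% of measured genes. Both strands were searched, and a match is not evidence of binding.

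Some genes that rose belong to none of these families. KLHDC7B, a kelch domain gene, had 9.79, 9.89 and 9.84 in IGF-I and 7.98, 8.02 and 8.22 in SFM arrays and rose 3.41-fold (log2 1.77). Its other probe set rose less, 1.81-fold (log2 0.86). The protease inhibitor gene CSTA (cystatin A) rose by 0.95 and the dehydrogenase gene DHRS2 by 0.90. VEGFA, the angiogenic growth factor, had 10.36, 10.32 and 10.46 in IGF-I and 9.77, 9.72 and 9.75 in SFM arrays and rose by 0.63, though by the mean of its probe sets it was at 0.44. It was the only one called of 29 measured hypoxia and glycolysis genes, of which 9 were higher by the adjusted p. The highest of those not called was at 0.58, just under 1.5-fold, and the median of the list was 0.06. HERC5, an interferon-induced ligase for ISG15, rose by 0.62, as the only one called of 36 measured interferon-stimulated genes, of which 16 were higher by the adjusted p, with a median of 0.16. It was at 0.57 without replicate B of all groups. The other genes called in no list, among them GTPBP2 (0.74), LAMP3 (0.74) and ODC1, the first enzyme of polyamine synthesis (0.67), lay between 0.60 and 0.82.

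Of the 9 genes that fell, 8 are named here, ABAT, SLC2A13, BCAS1, CHST1, ATP8A1, H2AC6, PPM1L and CYBRD1, with log2 fold changes between -0.79 and -0.59. ABAT, which encodes GABA transaminase, had 8.21, 8.33 and 8.41 in IGF-I and 8.94, 9.12 and 9.25 in SFM arrays, a change of -0.79 (standard error 0.08), and its further probe sets gave -0.89 and -0.29. BCAS1, a gene named for its amplification in breast carcinoma, averaged 7.85 ± 0.14 in IGF-I and 8.56 ± 0.07 in SFM arrays (SD, n = 3 each), without overlap and with a change of -0.72. The inositol carrier gene SLC2A13 was at -0.74, with 6.95, 6.86 and 6.83 in IGF-I and 7.59, 7.60 and 7.66 in SFM arrays. The sulfotransferase CHST1 (-0.68), the phospholipid flippase ATP8A1 (-0.66), the phosphatase PPM1L (-0.60) and the ferric reductase CYBRD1 (-0.59) had smaller changes. By the mean of all probe sets of a gene SLC2A13 was at -0.35, CHST1 at -0.36, ATP8A1 at -0.29, PPM1L at -0.19 and CYBRD1 at -0.33, none of them a call. ABAT and BCAS1 alone of the 9 kept their call under the 18 alternatives that left the 1.5-fold and adjusted p thresholds in place, and no probe set was called lower at 2-fold. H2AC6, a histone H2A gene whose transcript is unusual in cycling cells for carrying a poly(A) tail, was the 1 histone called of 29, at -0.63. Among probe sets that were not their gene's brightest, and picked after their values were seen, INPP4B (-0.82), a lipid phosphatase that opposes PI3K, PGR (-0.65), the progesterone receptor, and both called probe sets of ARRB1 (-0.65 and -0.62), beta-arrestin 1, fell as well. By their brightest probe sets, INPP4B was at -0.20, PGR at -0.28 and ARRB1 at -0.50, none of them called. Of 25 measured luminal genes 6 were lower by the adjusted p alone, ESR1, the estrogen receptor, at -0.29, and STC2 was the 1 called.

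Lists of growth factor early response, IGF signaling, FOXO and cholesterol genes had small changes at 24 h. None of the 35 measured growth factor early response genes was called in limma, though 11 were higher by the adjusted p, DUSP6, a phosphatase that feeds back on ERK (0.40), and the MAPK-induced factor ETV5 (0.54) among them. In the same clone at 4 h 1 of these early response genes was called higher (0.0556% of all genes were). The median of their list was 0.18 at 4 h and 0.11 at 24 h. No gene of the IGF signaling, IGF binding protein, FOXO or cholesterol lists was called at 4 h. At 24 h no IGF and insulin signaling gene of 27 was called in limma, with 3 higher and 2 lower by the adjusted p, and no IGF binding protein gene of 8 passed the adjusted p. None of 27 measured FOXO factors and targets was called, and 4 were lower by the adjusted p, CITED2 (-0.46), ERBB3 (-0.34), FBXO32 (-0.33) and CCNG2 (-0.32). Higher by the adjusted p were 2 others, GADD45A (0.40) and TXNIP (0.17), and the median of the list was -0.04. None of 20 measured genes of cholesterol synthesis and uptake was called, and 5 were lower by the adjusted p, among them SQLE (-0.23), against 1 higher. The chemokine gene CCL2 was at -0.12. Of the genes that the study names, TGFB1 was at 0.15, TGFB2 at 0.05, TNFRSF12A at 0.10, ADM at -0.08 and CDKN2B at -0.15. GBP1, an interferon-induced GTPase, was at 0.54 and the cell cycle factor MYBL2 at 0.31, which passed the adjusted p alone.

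The response of the same clone at 24 h was then set against that at 4 h. Tested as the difference between the 24 h and the 4 h response, with separate SFM arrays at each time, 204 probe sets were higher at 24 h (0.374%) and 45 lower (0.0824%), together 0.456%, or 108 and 16 genes (0.546% and 0.0809%, together 0.627%). INHBE was at 3.39 at 24 h and at 0.35 at 4 h, where its mean was 5.96 ± 0.11 in IGF-I and 5.61 ± 0.06 in SFM arrays (SD, n = 3 each), a difference of 3.04 (standard error 0.15, adjusted p = 4.21e-20 in limma). DDIT3 was at 1.07 at 24 h and 0.09 at 4 h, ASNS at 1.83 at 24 h and 0.16 at 4 h, GARS1 at 0.79 at 24 h and 0.00 at 4 h, and CLGN at 1.13 at 24 h and -0.12 at 4 h. Of the ATF4 and CHOP regulators 10 of 22 had a larger response at 24 h, of the serine and one-carbon enzymes 7 of 23, and of the cytosolic synthetases 7 of 17. No synthetase of the mitochondria did, though 3 of 15 passed the adjusted p alone in limma. Mitosis genes differed as well, 20 of 56 being higher in this test: their median response was 0.36 at 24 h and -0.12 at 4 h. The other way, GBP1 was at 0.54 at 24 h and 2.17 at 4 h, THBS1, a matrix glycoprotein, at -0.53 at 24 h and 0.99 at 4 h, TGFB2 at 0.05 at 24 h and 1.31 at 4 h, CCL2 at -0.12 at 24 h and 0.98 at 4 h, and CCND1 at 0.04 at 24 h and 0.78 at 4 h. For CCND1 the difference was -0.74 (standard error 0.10, adjusted p = 7.17e-07 in limma). The THBS1 values are those of its brightest probe set. Its other probe sets lay between -0.18 and -0.05 at 24 h, none past the adjusted p. The SFM levels were not the same at both times: those of GBP1 averaged 8.75 at 24 h and 8.04 at 4 h, and those of CCND1 9.12 at 24 h and 8.74 at 4 h. Among genes with a larger response at 24 h they moved both ways. SFM levels of SLC7A5 averaged 12.03 at 24 h and 12.53 at 4 h, and those of DHRS2 9.02 at 24 h and 9.50 at 4 h. Those of KLHDC7B averaged 8.07 at 24 h and 7.72 at 4 h, and those of DDIT3 9.59 at 24 h and 9.32 at 4 h. The part of these shifts in the responses was not tested. Without replicate A of all groups 478 probe sets differed between the times, in place of 249.

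Against IRS-1 #10, the other IRS-1 clone, 63 probe sets had a higher 24 h response in IRS-1 #20 (0.115%) and 10 a lower one (0.0183%), together 0.134%, or 26 and 6 genes (0.131% and 0.0303%, together 0.162%). INHBE was at 3.39 in IRS-1 #20 and 0.67 in IRS-1 #10, a difference of 2.72 (standard error 0.15, adjusted p = 4.02e-18 in limma). GDF15 was at 2.46 in IRS-1 #20 and 0.45 in IRS-1 #10. DDIT3 was at 1.07 in IRS-1 #20 and 0.10 in IRS-1 #10, a difference of 0.97. KLHDC7B differed by 1.48, CLGN by 1.13, ERN1 by 0.89 and ASNS by 0.88, and VEGFA by 0.73 and TNFRSF10B by 0.67. By its other probe set KLHDC7B differed by 0.54, which passed the adjusted p alone. PSAT1 was at 1.21 in clone #20 and 0.95 in clone #10, SLC7A5 at 0.97 in clone #20 and 0.85 in clone #10, and PMAIP1 at 1.19 in clone #20 and 1.03 in clone #10. These differences of 0.26, 0.13 and 0.16 (standard errors 0.09, 0.07 and 0.14 for PSAT1, SLC7A5 and PMAIP1) did not pass the test. Of the ATF4 and CHOP regulators 4 of 22 had a higher response in IRS-1 #20, and none of the amino acid transporters, cytosolic synthetases or mitosis genes reached 1.5-fold in this difference in limma. By the adjusted p alone the response was higher in IRS-1 #20 for 7 of 17 cytosolic synthetases, SARS1 by 0.54 and CARS1 by 0.48 among them, and for 2 of 26 transporters, SLC3A2 by 0.58 and SLC7A11 by 0.49. It was lower for 1 of 56 mitosis genes, ANLN, which encodes the cytokinesis protein anillin, at -0.26. Of 51 E2F factors and DNA replication genes 26 were lower by the adjusted p in this difference, and UHRF1 was the 1 that reached 1.5-fold. Lower in IRS-1 #20 were the responses of CCL2 (-0.12 in clone #20, 0.66 in clone #10), UHRF1, a DNA methylation factor of S phase (-0.14 in clone #20, 0.57 in clone #10), ZNF367 (-0.16 in clone #20, 0.48 in clone #10), KCNC1, a potassium channel (-0.39 in clone #20, 0.26 in clone #10) and THBS1 (-0.53 in clone #20, 0.11 in clone #10). Without replicate C of all groups 44 probe sets differed between the clones, in place of 73.

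**Figure D5:**
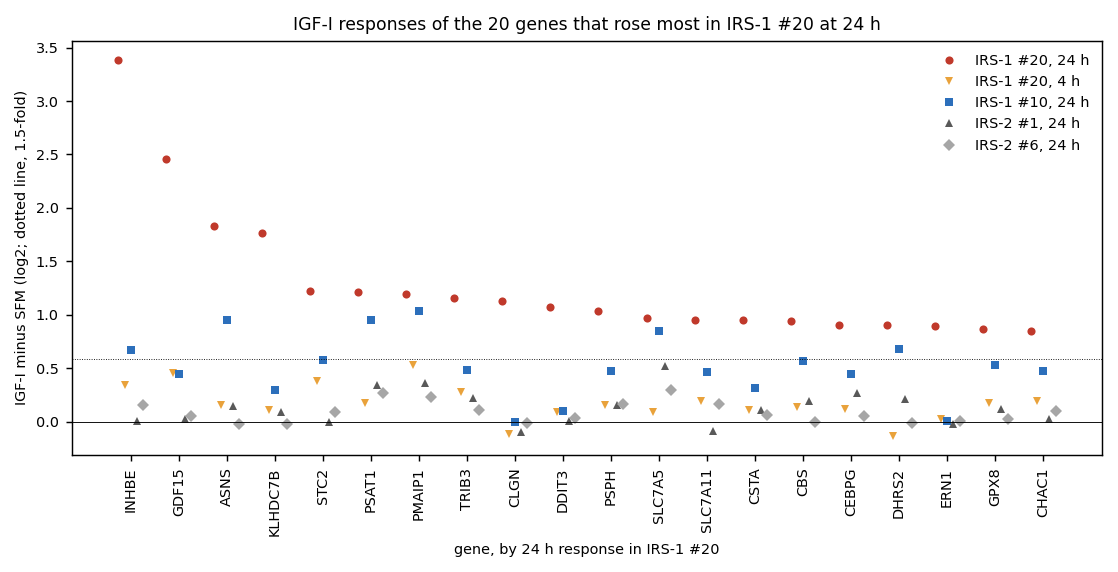
Log2 fold change, IGF-I minus SFM, in IRS-1 #20 at 24 h (red circles) and 4 h (orange triangles) and in IRS-1 #10, IRS-2 #1 and IRS-2 #6 at 24 h, for the 20 genes that rose most in IRS-1 #20 at 24 h. The genes were chosen by the red circles, so their place above the others is no finding. INHBE is at 3.39 in clone #20 at 24 h, 0.67 in clone #10, 0.00 in clone #1 and 0.15 in clone #6, while PMAIP1 is at 1.19 in IRS-1 #20 and 1.03 in IRS-1 #10.

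Against the mean of the clones labelled IRS-2, 83 probe sets had a higher 24 h response in IRS-1 #20 (0.152%) and 6 a lower one (0.011%), together 0.163%, or 45 and 1 genes (0.228% and 0.00506%, together 0.233%). ASNS was at 1.83 in clone #20, 0.15 in clone #1 and -0.02 in clone #6, a difference of 1.77 (standard error 0.07, adjusted p = 3.1e-25 in limma), and INHBE differed by 3.31, GDF15 by 2.42, KLHDC7B by 1.74 and CLGN by 1.18. Of the ATF4 and CHOP regulators 9 of 22 had a higher response in IRS-1 #20, of the cytosolic synthetases 5 of 17 and of the serine and one-carbon enzymes 5 of 23. Without replicate C of all groups 139 probe sets differed, in place of 89. Of the mitosis genes none differed in this test (1 by the adjusted p alone), and their medians were 0.36 in clone #20, 0.36 in clone #1 and 0.23 in clone #6. HOXC6, a homeobox gene, was the 1 gene with a lower response, at -0.24 in clone #20, 0.57 in clone #1 and 0.13 in clone #6, a difference of -0.59. In clone #20 HOXC6 had 10.62, 11.03 and 11.04 in IGF-I and 11.19, 11.12 and 11.11 in SFM arrays. IGF-I array A thus lay well below the rest, and the change within clone #20 did not pass the adjusted p. Among the genes that fell in IRS-1 #20, ABAT was at -0.79 in clone #20, -0.68 in clone #10, -0.50 in clone #1 and -0.66 in clone #6, H2AC6 was at -0.63 in clone #20, -0.78 in clone #10, -0.69 in clone #1 and -0.83 in clone #6, and none of the 9 differed between clones in limma by adjusted p and fold together, though by the adjusted p alone 1 had a lower response in IRS-1 #20 than in IRS-1 #10 and 2 a lower one than in the IRS-2 clones. In both comparisons of clones the arrays, not the clones, are the replicates, and against the IRS-2 clones a difference between clones cannot be told apart from one between the IRS proteins.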

How the data were processed

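RNA from T47D-YA clones had been hybridised to Affymetrix HG-U133 Plus 2.0 arrays. The authors summarised probes with GC-RMA, and the values used are the deposited log2 intensities, 1 column per array; GC-RMA shrinks low signals, which understates changes of dim probe sets. Arrays have no sequencing depth, and 3 arrays per group limit the precision. limma 3.58.1 in R 4.3.3 fitted all 48 arrays, with 16 group means and an intensity trend (32 residual df), and p-values were Benjamini-Hochberg adjusted over 54613 probe sets. Called means adjusted p under 0.05 and 1.5-fold. A gene was represented by its brightest single-symbol probe set, on average over the 48 arrays (41097 of the probe sets had 1 symbol, 1801 several and 11777 none). Named were the 20 largest rises, up to 12 falls, up to 5 called genes per list, the 5 largest differences each way per test and the genes the study names. Members and lists were chosen with earlier results of these data known. The script was checked on simulated data. Dim-probe filters, a floor, normalization, fit, thresholds, the methods' t-test and left-out arrays were varied. One gene that fell is not reported here. Promoters came from RefSeq tables (GRCh38.p14) and were searched in Python 3.11.15.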

Additional observations from a re-analysis of the deposited data

Results flagged for a closer look

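The response to IGF-I differed between groups in 3 tests of the difference itself, in limma with Benjamini-Hochberg adjustment. It differed between 24 h and 4 h in IRS-1 #20 for 249 probe sets, between IRS-1 #20 and IRS-1 #10 at 24 h for 73, and between IRS-1 #20 and the mean of the IRS-2 clones at 24 h for 89. Between 24 h and 4 h the log2 response was larger at 24 h by 3.04 for INHBE, 2.00 for GDF15, 1.68 for ASNS, 1.66 for KLHDC7B and 1.24 for CLGN. The same difference was -1.63 for GBP1, -1.52 for THBS1, -1.26 for TGFB2, -1.10 for CCL2 and -0.74 for CCND1.

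IRS-1 #20 minus IRS-1 #10 was 2.72 for INHBE, 2.01 for GDF15, 1.48 for KLHDC7B (0.54 by its other probe set, not called), 1.13 for CLGN and 0.97 for DDIT3. It was -0.78 for CCL2, -0.72 for UHRF1, -0.65 for KCNC1, -0.65 for ZNF367 and -0.64 for THBS1. IRS-1 #20 minus the mean of the IRS-2 clones was 3.31 for INHBE, 2.42 for GDF15, 1.77 for ASNS, 1.74 for KLHDC7B and 1.18 for CLGN, and -0.59 for HOXC6. For HOXC6, IGF-I array A of IRS-1 #20 (10.62) lay below arrays B and C (11.03 and 11.04). Groups of 3 arrays are too small for a test of single outlying arrays.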

How the results depend on the processing

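With a 2-fold threshold 19 probe sets were called, 19 higher and 0 lower, and the differences called were 22 between the times, 7 between the IRS-1 clones and 14 against the IRS-2 clones. With no fold threshold the counts were 3930, 2687 higher and 1243 lower, and 2617, 571 and 453 differences. Bonferroni adjustment left 153 differences between the times and 31 between the IRS-1 clones. The methods' t-test on the 3 and 3 arrays called 136 at their threshold with 1.5-fold, 102 higher and 34 lower, and 27 after Benjamini-Hochberg, 25 higher and 2 lower. Leaving out replicates gave 127 to 205 called, 88 to 157 higher, 20 to 61 lower, 209 to 478 differences between the times, 44 to 104 between the IRS-1 clones and 69 to 139 against the IRS-2 clones, and the cause was not tested. Quantile normalization gave 68% higher calls in place of 74.5%.

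The replicate letters did not pair the IGF-I and SFM arrays of IRS-1 #20 at 24 h: deviations correlated at 0.302, -0.151 and 0.15 for equal letters and at -0.337 to 0.275 for others. With the letter as a replicate block 137 probe sets were called, 102 higher and 35 lower, and 247, 64 and 85 differed. Of 791 checks of the 44 called named genes 748 kept the call, 43 lost it and 0 reversed. These checks kept the thresholds of a call, and ABAT and BCAS1 among the falls and 22 rises kept it in all of them. THBS1 became a called fall under 3 settings, at -0.59 after quantile normalization. Over all settings it ran from -0.59 to -0.17, and its probe sets other than the brightest lay between -0.18 and -0.05, none past the adjusted p.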
